A study of Homo sapiens and Mus musculus with 213 samples.

Results

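The comparison described here sets 2 edited HEK293T lines, averaged with equal weight, against the unedited line, and asks which genes differ from wild type in common whether or not the edited site can still fold. HEK293T is an immortalized line from human embryonic kidney. MYC WT cells (WT) keep the natural G-quadruplex (G4) motif upstream of MYC, MYC MUT cells (MUT) carry base changes in its G-runs, made so that it no longer folds, and in the SWP line a different G4-forming sequence takes its place. RNA was sequenced from 3 libraries of each line, so that 6 edited libraries stand against 3 WT libraries. These are 9 of the 213 samples of the study. Members are the 20884 of 58336 listed genes whose mean normalized count over the 9 libraries was at least 10. Just inside that minimum lay CD226, with a mean of 10.01, and just outside it CACNA1E, with 9.99, of which MUT held a mean of 28.1 and WT 1.12.

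The edited lines were derived with CRISPR from sorted or subcloned single cells and carry their edits homozygously. The sources used here do not say how many clones gave the RNA, or that WT cells passed through subcloning, so growth from a single cell and the edit cannot be told apart. The column names of the 3 WT libraries also carry a suffix that those of the 6 edited libraries lack. The labels do not say what it stands for. If it marks a batch, batch and editing cannot be told apart either. The labels number the libraries of a line Bio1 to Bio3 without saying what was grown separately, so p-values measure only the spread between these libraries. Fewer cells of one kind and less RNA per cell give the same value in such bulk samples.

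A G-quadruplex is a four-stranded structure that forms where runs of guanines lie close together, and such motifs are frequent at promoters. MYC encodes a transcription factor that drives growth, ribosome production and metabolism. Cells grown from a single founder inherit its pattern of silenced and active genes, and clustered protocadherins are known for expression that differs from cell to cell and is passed on. Many zinc finger genes sit in clusters on chromosome 19 and encode KRAB repressors, which are known to silence transposable elements.

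Genes received 65024354 to 98497026 reads in a library. A principal component with 58.6% of the variance set MUT, at -65.2 in each library, apart from WT, at 19.2 to 22.2, and SWP, at 43.5 to 45.5. The second component, with 18.5%, set WT, at 20.9 to 44.6, apart from MUT, at -11.1 to -4.83, and SWP, at -40.0 to -17.8. On the third component, with 10.6%, the libraries numbered 1 of all lines lay highest within their line (36.5 in WT, 29.1 in SWP and 7.79 in MUT), and counts that move with them are given below. Of 10 genes listed as markers of HEK293T, 9 were tested, among them VIM at 51604 to 63784 normalized counts and NEFM at 6552 to 13536, while PAX8 reached at most 1.94. The defining markers of blood (PTPRC, CD3E, HBB), endothelium (PECAM1) and pluripotent cells (POU5F1, NANOG) had at most 1.95 in any library.

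Against WT, the edited lines together had 1915 changed genes, 9.17% of those tested, with 1058 higher (5.07%) and 857 lower (4.1%). A change needed an adjusted p under 0.05 from limma (Benjamini-Hochberg, over the 20884 genes) and a log2 fold change beyond 0.5. An adjusted p alone was met by 4907 genes (23.5%). Log2 fold changes, given with their standard error (SE), are on the scale of log2(normalized count + 1), which understates changes of genes with low counts. Since a mean of 2 lines can be carried by 1 of them, a gene is called changed in common where, in addition, each line lay beyond 0.5 in the same direction. That held for 643 genes (3.08%), 386 higher (1.85%) and 257 lower (1.23%), which is 33.6% of the changed genes. Both lines are set against the same 3 WT libraries, so the condition is one of size in each line and not an overlap of independent results. A line's own change need not pass the test. Of the genes named below as changed in common, those with almost no WT reads apart, it did not in SWP for SLC6A9 (limma adjusted p = 0.413), MTHFD2 (limma adjusted p = 0.0982), FOS (limma adjusted p = 0.185), CCN1 (limma adjusted p = 0.128), HSPB8 (limma adjusted p = 0.195), COL13A1 (limma adjusted p = 0.14), COL23A1 (limma adjusted p = 0.218), WNT4 (limma adjusted p = 0.0794), ROR2 (limma adjusted p = 0.0872), KCNQ1 (limma adjusted p = 0.0755), PCDHB15 (limma adjusted p = 0.162) and CMPK2 (limma adjusted p = 0.217), so that for these the SWP value is a description.

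The remaining 1272 changed genes went beyond 0.5 in 1 line, 1092 of them in MUT and 180 in SWP, and in 95 the other line lay beyond 0.5 on the opposite side of WT. The contrast of MUT with SWP takes no WT level into its difference, but its error is estimated over all 9 libraries, and it found 4309 genes different (20.6%), or 4196 to 4494 without 1 of the WT libraries. Of the genes changed in common, 216 (33.6%) also differed in size between the lines, 170 of them with the larger change in MUT and 46 in SWP. In 111 genes changed in common the 95% interval of MUT minus SWP lay within 0.5, and for 316 neither a difference nor a bound of that size was found. The 6 edited libraries did not overlap the 3 WT libraries in 512 (79.6%) of the genes changed in common, and in 11.4% of all tested genes, where 951 (4.55%) lay above and 1434 (6.87%) below.

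Genes changed in common had fewer reads than most. Their median of the mean normalized count was 122 for those higher and 67.1 for those lower, against 894 over all tested genes, and lncRNAs made up 17.1% of each set against 12.2%. Large changes were rarer: beyond 1 in each line lay 90 higher and 64 lower genes, and beyond 2 lay 5 and 14. The split of directions depended on single WT libraries. Without WT replicate 1 the genes lower in common numbered 487 and 47.6% of the genes changed in common were higher, against 60.0% with all libraries. Without WT replicate 2 they numbered 149 and 71.1% were higher, and without the 3 libraries numbered 1 they numbered 352 and 57.3% were higher. Rescaling to equal library totals gave 71.6% higher and moved the median of all genes from -0.031 to 0.031.

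**Figure D1:**
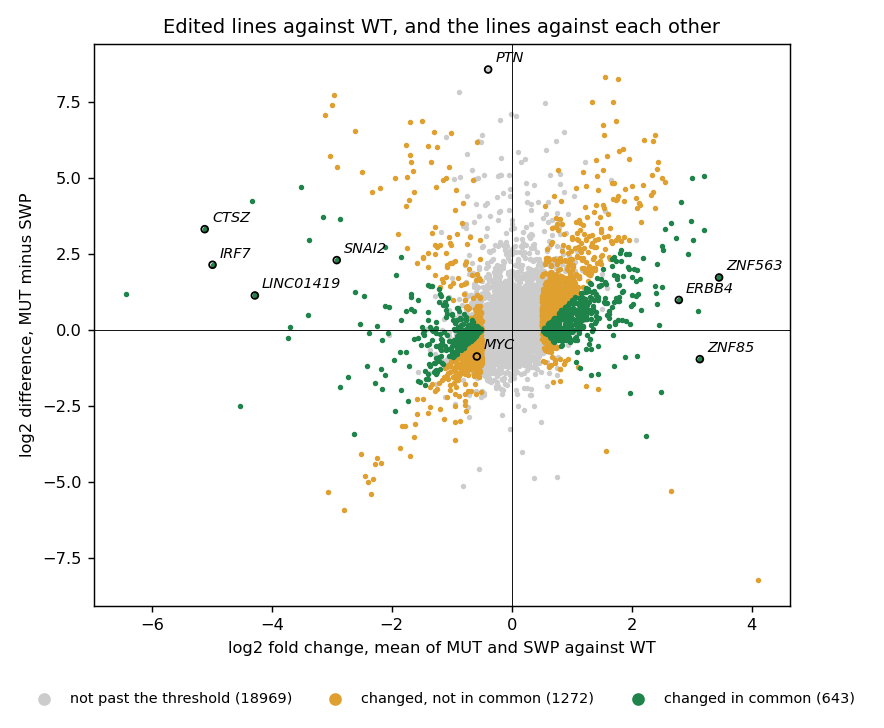
Log2 fold change of both edited lines against WT (x axis) and log2 difference of MUT minus SWP (y axis), one point per tested gene. The 643 genes changed in common form wedges around the horizontal line, and most of the 1272 others lie toward the diagonals, where 1 line carries the mean.

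MYC itself, the edited gene, was not changed in common. Its normalized counts were 20020.3, 28396 and 21580.1 in WT, 10693, 11176 and 12399.8 in MUT and 14480.1, 24743 and 25245 in SWP. All MUT libraries lay below WT, whereas 1 SWP library lay below WT and 2 within its range. The mean of both lines gave a log2 fold change of -0.58 (SE 0.17, limma adjusted p = 0.0282), from -1.02 in MUT and -0.15 in SWP (SE 0.19, limma adjusted p = 0.712), and the lines differed by -0.87 (95% interval -1.30 to -0.44, limma adjusted p = 0.00454). An exact two-sided permutation test of 6 edited against 3 WT libraries gave p = 0.19 for MYC, where 0.0238 is the smallest such p. The call rests on single libraries: without WT replicate 2 the log2 fold change was -0.43 (limma adjusted p = 0.135), it was also lost without WT replicate 3, MUT replicate 1 or 2, or SWP replicate 1, and SWP replicate 1 was the lowest of its line.

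Of 191 tested zinc finger (ZNF) genes on chromosome 19, 24 rose in common. ZNF563, ZNF85 and ZNF793 had the largest rises among genes changed in common with a mean of at least 50. Each belongs to the C2H2 zinc finger genes, of which most encode DNA-binding repressors. ZNF563 (ENSG00000188868) had 5.13, 5.61 and 4.81 normalized counts in WT, 118, 124 and 125 in MUT and 33.2, 35.7 and 40.4 in SWP, a log2 fold change of 3.46 (SE 0.16, limma adjusted p = 6.6e-07). ZNF793 had 11.3, 7.86 and 10.6 in WT, 142, 112 and 94.5 in MUT and 71.0, 87.7 and 65.7 in SWP, a log2 fold change of 3.11 (SE 0.19, limma adjusted p = 3.6e-06). ZNF85 had 15.4, 23.6 and 17.3 in WT, 134, 112 and 121 in MUT and 212, 259 and 244 in SWP, a log2 fold change of 3.14 (SE 0.16, limma adjusted p = 6.9e-07). Genes without overlap of edited and WT libraries were chosen here, so the separation of the groups is a condition and no finding. MUT was the higher line for ZNF563 (MUT minus SWP 1.73, limma adjusted p = 4.3e-05) and ZNF793 (0.62, limma adjusted p = 0.0455), and SWP for ZNF85 (-0.96, limma adjusted p = 0.0018). Reads of closely related zinc finger genes could be assigned to the wrong copy.

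The promoters of these 3 genes are shown with that of CTSZ, which fell most among genes changed in common with a mean of at least 50, since the edit concerns a G4 motif. Each runs from 250 bases before to 50 after the RefSeq start (GRCh38.p14), read along the gene, and capitals mark matches to 4 runs of at least 3 G, with 1 to 7 bases between runs, on either strand. The zinc finger promoters hold no match and the CTSZ promoter holds 2.
ZNF563 (chr19:12333584-12333883, minus strand): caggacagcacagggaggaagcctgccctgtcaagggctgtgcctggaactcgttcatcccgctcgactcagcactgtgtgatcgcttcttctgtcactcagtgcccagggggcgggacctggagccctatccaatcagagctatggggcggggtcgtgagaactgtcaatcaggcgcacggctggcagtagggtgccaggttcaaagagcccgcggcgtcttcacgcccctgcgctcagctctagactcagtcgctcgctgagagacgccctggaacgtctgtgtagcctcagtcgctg
ZNF793 (chr19:37506689-37506988, plus strand): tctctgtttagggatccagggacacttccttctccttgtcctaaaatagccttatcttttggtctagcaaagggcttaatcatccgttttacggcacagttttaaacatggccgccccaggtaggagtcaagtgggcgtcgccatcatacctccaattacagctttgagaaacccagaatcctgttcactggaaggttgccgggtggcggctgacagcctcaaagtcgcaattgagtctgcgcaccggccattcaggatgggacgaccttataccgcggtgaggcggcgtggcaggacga
ZNF85 (chr19:20923001-20923300, plus strand): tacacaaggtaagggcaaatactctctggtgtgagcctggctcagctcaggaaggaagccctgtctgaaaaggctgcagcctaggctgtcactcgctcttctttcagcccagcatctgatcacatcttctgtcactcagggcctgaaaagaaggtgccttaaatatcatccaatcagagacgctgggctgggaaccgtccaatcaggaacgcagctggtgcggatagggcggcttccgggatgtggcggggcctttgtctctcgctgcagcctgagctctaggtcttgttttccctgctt
CTSZ (chr20:59007205-59007504, minus strand): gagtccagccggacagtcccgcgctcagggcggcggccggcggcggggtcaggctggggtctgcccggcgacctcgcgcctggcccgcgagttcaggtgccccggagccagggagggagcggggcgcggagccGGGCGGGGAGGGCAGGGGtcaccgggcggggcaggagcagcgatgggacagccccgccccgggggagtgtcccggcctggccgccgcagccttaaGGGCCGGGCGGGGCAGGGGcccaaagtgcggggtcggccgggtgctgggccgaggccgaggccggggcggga

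Over the genes with a promoter in that table, such a motif was found in 34.7% of all tested genes (4251 of 12246), 41.5% of those higher in common (98 of 236) and 32.9% of those lower in common (47 of 143). It was found in 2 of 23 promoters of zinc finger genes that rose in common (8.70%), against 18.7% of the 348 zinc finger promoters. The letters CACGTG, an E-box to which MYC with MAX can bind, were in 9.95% of all promoters, 8.90% of those higher and 10.5% of those lower. These shares describe letters in a window and not folded structures or bound sites.

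Of 405 tested ZNF genes, 78 were higher and 7 lower, with 26 and 3 changed in common (20.99% changed and 7.16% in common, against 9.17% and 3.08% of all genes). On chromosome 19, 72 of 191 ZNF genes were higher and 4 lower, 24 and 3 of them in common, and the median log2 fold change was 0.35 (0.53 in MUT and 0.15 in SWP). The 214 on other chromosomes had 6 higher and 3 lower genes and a median of 0.016, and the 1061 other tested genes of chromosome 19 had 78 higher and 38 lower and a median of -0.028. By library, the median over the 191 genes, relative to the WT mean, was 0.50 to 0.55 in MUT, 0.13 to 0.25 in SWP and -0.012 to 0.030 in WT, so that no edited library reached into the WT range. Among the others that rose in common, named here after their values were seen, ZNF66 (log2 fold change 1.46 in MUT and 3.51 in SWP) and ZNF91 (1.11 and 2.30) rose more in SWP, and ZNF528 rose by 2.00 and 1.68. ZNF114 fell in both lines, by 0.62 in MUT and 0.61 in SWP.

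Other genes that rose in common include receptors and RNAs without a coding role. ERBB4, a receptor tyrosine kinase for neuregulins, had 27.7, 53.9 and 24.1 normalized counts in WT, 311, 307 and 376 in MUT and 137, 179.8 and 185 in SWP, a log2 fold change of 2.79 (SE 0.23, limma adjusted p = 2e-05), with the larger rise in MUT (MUT minus SWP 0.99, limma adjusted p = 0.0115). CYTOR, a lncRNA with a near-identical copy on the same chromosome whose reads may be mixed with its own, had 20.5, 29.2 and 26.0 in WT, 159.9, 133 and 159.8 in MUT and 123, 134 and 144 in SWP, a log2 fold change of 2.46 (SE 0.15, limma adjusted p = 3.6e-06). Its rise did not differ between the lines beyond an interval of -0.20 to 0.55. SUSD4, a regulator of complement, had 69.7, 78.6 and 80.9 in WT, 604, 636 and 642 in MUT and 172, 332 and 337 in SWP, rising by 3.02 and 1.80 on the log2 scale.

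For other leading risers no difference between the lines was found. LRRC26, an auxiliary subunit of BK potassium channels, had 49.2, 56.1 and 77.0 normalized counts in WT, 215, 272 and 267 in MUT and 162, 209.5 and 256 in SWP, a log2 fold change of 1.91. ZNF804A had 67.7, 65.1 and 56.8 in WT, 289, 235 and 211 in MUT and 241, 181 and 171 in SWP, a log2 fold change of 1.77. For ADGRB1, an adhesion receptor of brain, the counts were 50.2, 47.1 and 47.2 in WT, 193, 171 and 157 in MUT and 104, 176 and 181 in SWP, a log2 fold change of 1.72. The intervals of MUT minus SWP were, in that order, -0.17 to 0.74, -0.06 to 0.69 and -0.24 to 0.66. The antisense RNA PAXIP1-AS2 rose by 2.48 in MUT and 1.83 in SWP, and the line difference of 0.65 passed 0.05 only with the replicate number as a block (limma adjusted p = 0.0112, against 0.11 without). Reads of PAXIP1-AS2 and of its partner on the other strand cannot be told apart if counting ignored strand.

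KIF1A and NPTX1, with high counts, were named after their values were seen. KIF1A, a motor of axonal vesicle transport, had 4482, 5324 and 4029.7 normalized counts in WT, 16342, 15451 and 18427 in MUT and 12384, 12961 and 16394 in SWP, a log2 fold change of 1.73 (SE 0.11, limma adjusted p = 3.6e-06). NPTX1, a secreted protein of synapses, had 5069, 4540.4 and 3886 in WT, 15736, 15690.2 and 16609 in MUT and 12109, 10656 and 11549 in SWP, a log2 fold change of 1.60 (SE 0.08, limma adjusted p = 6.8e-07).

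**Figure D2:**
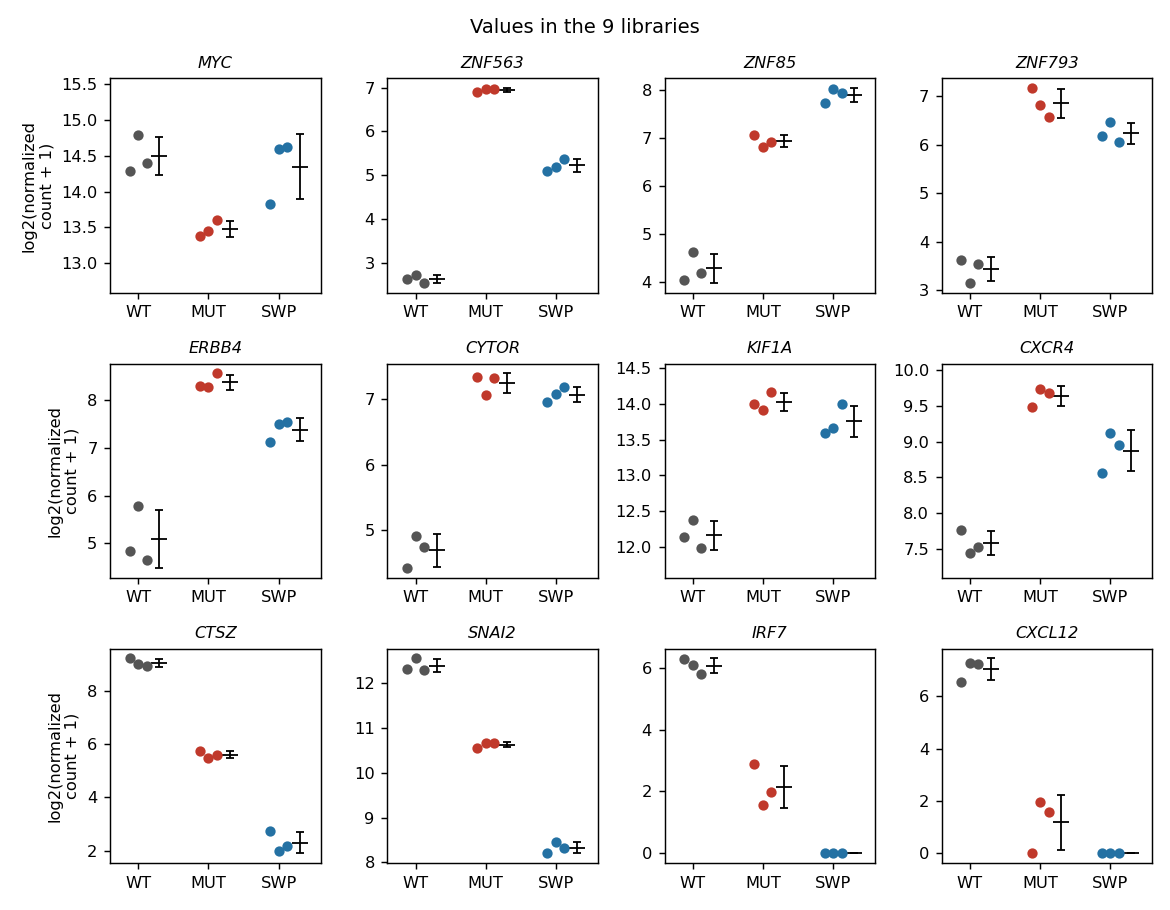
Log2(normalized count + 1) of 12 genes in the 9 libraries (points) of WT, MUT and SWP, with the mean and SD of each line (bars, n = 3). Each panel has its own y axis; for MYC the SWP libraries overlap WT, whereas for the other 11 genes no edited library does, which was a condition for naming most of them.

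Among named genes with a mean of at least 50, the largest falls in common were in a lysosomal protease, a lncRNA and a transcriptional repressor. CTSZ (ENSG00000101160, chromosome 20), which encodes the cathepsin Z protease, had 603, 523 and 495 normalized counts in WT, 52.7, 43.7 and 47.7 in MUT and 5.73, 2.97 and 3.46 in SWP, a log2 fold change of -5.12 (SE 0.19, limma adjusted p = 1.2e-07). SNAI2, a repressor that drives epithelial-to-mesenchymal transition, had 5091, 6040.0 and 5086 in WT, 1508, 1616 and 1619 in MUT and 296, 352 and 317 in SWP, a log2 fold change of -2.92 (SE 0.08, limma adjusted p = 1.7e-08). Both genes fell further in SWP than in MUT, with differences of 3.31 (limma adjusted p = 1e-06) and 2.30 (limma adjusted p = 3.3e-08). The lncRNA LINC01419 had 148, 303 and 232 in WT, 8.32, 23.3 and 19.5 in MUT and 9.17, 6.69 and 4.61 in SWP, a log2 fold change of -4.28 (SE 0.34, limma adjusted p = 1.7e-05).

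SULF1, which trims sulfates from heparan sulfate, had 1731, 2648 and 1969.6 normalized counts in WT, 386, 441 and 429 in MUT and 335, 666 and 631 in SWP, a log2 fold change of -2.16 (SE 0.20, limma adjusted p = 5.6e-05). ENPP2, the autotaxin that makes lysophosphatidic acid, had 352, 437 and 395 in WT, 159.9, 123 and 151 in MUT and 81.3, 100.3 and 95.7 in SWP, a log2 fold change of -1.76 (SE 0.13, limma adjusted p = 1.1e-05). SULF1, ENPP2, SNAI2 and LINC01419 lie on chromosome 8, as MYC does. For SULF1 no difference between lines was found (interval of MUT minus SWP -0.83 to 0.20), and ENPP2 fell further in SWP (0.64, limma adjusted p = 0.00567).

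ICAM4, an adhesion molecule of red cells, had 126, 127 and 144 normalized counts in WT, 8.32, 12.6 and 11.7 in MUT and 20.6, 43.8 and 40.4 in SWP, a log2 fold change of -2.73. PHF11, a zinc finger protein, had 189, 209 and 207 in WT, 54.5, 72.9 and 55.5 in MUT and 26.4, 40.9 and 38.1 in SWP, a log2 fold change of -2.11. The lysophospholipid receptor GPR55 had 89.2, 101 and 136 in WT, 13.9, 18.5 and 25.3 in MUT and 37.8, 34.2 and 41.5 in SWP, a log2 fold change of -1.97. TMEM100 had a log2 fold change of -1.46 in MUT and -1.55 in SWP, and the interval of their difference, -0.30 to 0.48, lay within 0.5.

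The chemokine CXCL12 was nearly lost in both edited lines. CXCL12 had 92.3, 155 and 151 normalized counts in WT, 0, 2.92 and 1.95 in MUT and 0 in all SWP libraries, with at most 3 reads in any edited library. CXCR4, a receptor of CXCL12, named after its values were seen, had 216, 173 and 184 in WT, 714, 855 and 821 in MUT and 375, 553 and 494 in SWP, a log2 fold change of 1.68 (SE 0.13, limma adjusted p = 1.7e-05), 2.06 in MUT and 1.29 in SWP. A link between the changes of CXCL12 and CXCR4 was not tested. PSKH2, a kinase gene on chromosome 8, was the other gene with at most 3 reads in each edited library and a change past the threshold, with 45.1, 28.1 and 30.8 in WT, 2.77, 0.972 and 1.95 in MUT and 1.15, 1.49 and 2.31 in SWP.

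The reverse pattern, at most 3 reads in each WT library, was found for 25 changed genes, and it was mostly a matter of 1 line. The rule covers 3 WT libraries here but 6 edited libraries above, so the counts of the patterns cannot be compared. Genes of either pattern passed the minimum mean only through the libraries where they were high. In 14 of the 25 SWP also had at most 3 reads in each library and in 2 MUT did. ZNF726 had 0 in all WT and MUT libraries and 301, 316 and 278 in SWP. ASTN1, a neuronal adhesion protein, had 3.08, 3.37 and 0.963 in WT, 114, 125 and 112 in MUT and 0 in SWP, and UGT2B4, a glucuronosyltransferase, had 0, 2.24 and 1.93 in WT, 97.1, 121 and 85.7 in MUT and 0, 0.743 and 0 in SWP. By the fitted values 9 of the 25 counted as changed in common. The pseudogene RPL35AP16 had means of 41.5 in MUT and 15.7 in SWP, ENSG00000234713 had 21.2 and 8.54, and SLC1A2, a glutamate transporter, had 28.5 and 6.20. RPL35AP31 had 3.19 in MUT and 46.0 in SWP. In the other 5, means in SWP were at most 3.43, and their fitted change in SWP depends on the added count of 1: ADGRA1, HRH3, ARHGAP6, ANOS1 and VAT1L. Of these 9, the change in SWP alone passed an adjusted p of 0.05 for HRH3 and RPL35AP31, and that of RPL35AP31 in MUT did not pass. ANOS1 had 1.03, 2.24 and 0.963 in WT, 117, 122 and 134 in MUT and 2.29, 3.71 and 2.31 in SWP. RPL35AP pseudogenes resemble each other and their parent gene, and reads may be shared among them.

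Genes of the amino-acid response, which the factor ATF4 induces when amino acids run short, fell in part. Of the 38 tested, 10 were lower and 0 higher (26.3%), 4 of them in common (10.5%). Over all tested genes 9.17% changed and 3.08% changed in common, and the lists below stand against the same shares. The median log2 fold change of the list was -0.55 (-0.84 in MUT and -0.27 in SWP), with 1 gene above 0. NUPR1, a stress-induced chromatin protein, had 62.5, 259 and 239.7 normalized counts in WT, 25.0, 51.5 and 55.5 in MUT and 16.0, 21.5 and 18.5 in SWP, a log2 fold change of -2.46 (SE 0.42, limma adjusted p = 0.00204). With the replicate number as a block the larger fall of NUPR1 in SWP passed the threshold (MUT minus SWP 1.12, limma adjusted p = 0.00666, against 0.0884 without). ALDH1L2, an enzyme of mitochondrial folate metabolism, had 6099, 14320.4 and 9920.3 in WT, 2585, 4189.9 and 4960.3 in MUT and 2791, 4703 and 4514 in SWP, a log2 fold change of -1.31 (SE 0.27, limma adjusted p = 0.00592). SLC6A9, a glycine transporter, had 1208, 3738 and 3384 in WT, 314, 471 and 715 in MUT and 864, 1887 and 2257 in SWP, and WT replicate 1 lay below 2 SWP libraries. MTHFD2, an enzyme of the same folate pathway as ALDH1L2, had a log2 fold change of -0.89 in MUT and -0.56 in SWP, and 2 SWP libraries lay above WT replicate 1.

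The level of this list moved with the libraries numbered 1. Relative to the WT mean, its median was -0.56, 0.31 and 0.25 in the WT libraries, -1.10, -0.77 and -0.59 in MUT and -0.70, -0.15 and 0.026 in SWP. The WT and SWP libraries thus overlapped, and the first library was the lowest of each line. Without WT replicate 1 the list had 30 lower genes, 21 of them in common. Without WT replicate 2 it had 3 lower genes, without WT replicate 3 it had 4, and without the 3 libraries numbered 1 it had 25, 12 of them in common; none was higher in any of these. Their part in the result was not tested. The call of SLC6A9 was lost without WT replicate 2 or 3.

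Part of the genes for cholesterol synthesis and uptake rose. Of 25 tested, 7 were higher and 0 lower (28.0%), 5 of them in common (20.0%), with a median of 0.29 (0.35 in MUT and 0.26 in SWP) and 23 genes above 0. TM7SF2, a sterol reductase, had 1526, 1762 and 1895 normalized counts in WT, 3344, 4455 and 4532 in MUT and 3459, 3686 and 4194 in SWP, a log2 fold change of 1.19 (SE 0.11, limma adjusted p = 4.9e-05). HMGCS1, the synthase before the rate-limiting reductase, had 10713, 6644 and 8317 in WT, 13671, 19036 and 18480.4 in MUT and 13189, 13072 and 13542 in SWP, a log2 fold change of 0.83 (SE 0.14, limma adjusted p = 0.00179). The interval of MUT minus SWP for TM7SF2 was -0.17 to 0.39, within 0.5. The other members that rose in common were SC5D (0.69), MSMO1 (0.63) and IDI1 (0.62), all enzymes of the pathway. WT replicate 2 was the lowest WT library of the list (median -0.16, against 0.066 and 0.059), and without it 4 genes were higher, 1 of them in common.

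Immediate early genes, transcribed within minutes of a growth signal, rose in part. Of 32 tested, 8 were higher and 0 lower (25.0%), 4 of them in common (12.5%), with medians of 0.61 in MUT and 0.11 in SWP. FOS, a subunit of the AP-1 factor, had 114, 64.0 and 56.8 normalized counts in WT, 925, 335 and 345 in MUT and 176, 123 and 119 in SWP, a log2 fold change of 1.76 (SE 0.32, limma adjusted p = 0.00321). EGR1 had 456, 340.1 and 528 in WT, 2514, 1537 and 1576 in MUT and 1123, 672 and 927 in SWP, a log2 fold change of 1.55 (SE 0.20, limma adjusted p = 0.000421). The edited libraries of both genes lay above WT, and MUT exceeded SWP by 1.79 for FOS (limma adjusted p = 0.00325) and 1.04 for EGR1 (limma adjusted p = 0.0045). ARC and CCN1 rose in common by 1.44 and 0.78. By library, the list's median was 0.50 to 0.61 in MUT and -0.023 to 0.17 in SWP, and SWP replicate 1 lay within the WT range of -0.087 to 0.028. Leaving out the 3 libraries numbered 1 gave 12 higher genes, with 4 in common.

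Host genes of small nucleolar RNAs, whose introns carry the guides for modifying ribosomal RNA, fell in part. Of 26 tested, 6 were lower and 1 higher (26.9%), 4 of them lower in common (15.4%), and the median was -0.34 (-0.38 in MUT and -0.28 in SWP). SNHG3 had 11694, 11890.2 and 12536 normalized counts in WT, 6869, 6958 and 5344 in MUT and 7925, 7945 and 6677 in SWP, a log2 fold change of -0.80 (SE 0.09, limma adjusted p = 0.00019). SNHG19 had 1206, 1655 and 1641 in WT, 632, 787 and 586 in MUT and 729, 1021 and 999 in SWP, a log2 fold change of -0.94 (SE 0.14, limma adjusted p = 0.00115). SNHG8 (-0.64) and SNHG25 (-0.77) were the other members lower in common. Every edited library had a lower median of this list (-0.48 to -0.14) than every WT library (-0.038 to 0.044), and the count of lower genes stayed at 6 or 7 whichever library was left out.

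Few targets of MYC and few ribosomal protein genes passed the threshold. Of 70 MYC target genes, 2 were lower and 0 higher (2.86%), with 15 genes above 0. The median was -0.085 (-0.066 in MUT and -0.11 in SWP), against -0.031 over all tested genes. TERT, the catalytic subunit of telomerase, was the one changed in common, with 953, 846 and 844 normalized counts in WT, 591, 577 and 536 in MUT and 491, 486 and 543 in SWP, a log2 fold change of -0.71 (SE 0.08, limma adjusted p = 0.000175). The list's medians by library, -0.20 to 0.0087 in edited and -0.14 to 0.12 in WT libraries, overlapped. Of 86 cytosolic ribosomal protein genes, 3 were lower, 0 higher (3.49%) and 0 changed in common, with 12 genes above 0. Their median was -0.20 (-0.24 in MUT and -0.13 in SWP). These genes have many near-identical pseudogenes that could take their reads.

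**Figure D3:**
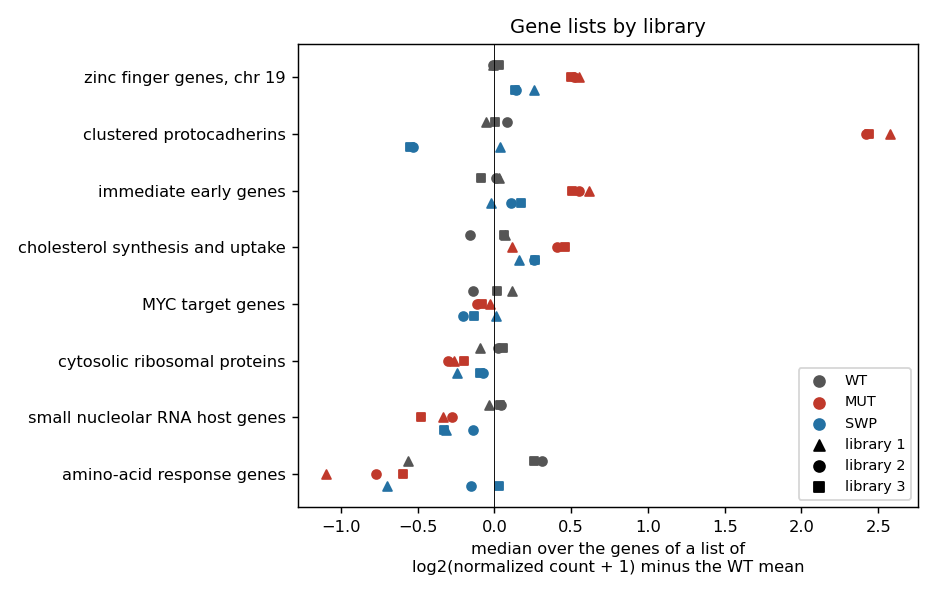
Median over the tested genes of 8 lists of log2(normalized count + 1) minus the mean of the WT libraries (x axis), for each library of WT, MUT and SWP; the marker shape gives the replicate number. Zinc finger genes of chromosome 19, small nucleolar RNA host genes and cholesterol genes separate edited from WT libraries. Protocadherins and immediate early genes separate MUT alone, and the amino-acid response genes are lowest in the first library of each line.

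Genes of adhesion and matrix moved in both directions. Shares of the following lists stand against 9.17% changed and 3.08% changed in common over all tested genes. Of 38 cadherins and other adhesion genes, 7 were higher and 4 lower, 2 and 2 of them in common (28.9% changed and 10.5% in common). CLDN1, a tight-junction claudin, had 48.2, 55.0 and 54.9 normalized counts in WT, 161, 197 and 163 in MUT and 124, 159.7 and 195 in SWP, a log2 fold change of 1.63 (SE 0.16, limma adjusted p = 6.1e-05), and NECTIN1, another junction protein, rose by 0.72. NCAM2 fell by 0.70. CDH7, the other gene that fell in common, had 34.9, 37.0 and 36.6 in WT, 14.8, 4.86 and 9.74 in MUT and 1.15, 0 and 0 in SWP. The intervals of MUT minus SWP were -0.25 to 0.53 for CLDN1 and -0.09 to 0.28 for NECTIN1.

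Of 31 collagen genes, 3 were higher and 8 lower, 2 and 4 of them in common (35.5% changed and 19.4% in common). COL4A3 and COL4A4, neighbours that share a promoter region and encode basement-membrane chains, rose together, by 0.98 and 1.23 on the log2 scale. COL4A4 had 125, 136 and 116 normalized counts in WT, 293, 382 and 370.2 in MUT and 195, 289 and 286 in SWP. COL13A1 (-1.14) and the fibrillar COL3A1 (-1.10) fell, and so did COL23A1 (-0.99) and COL27A1 (-0.55). For COL3A1 the difference between lines, 0.66, passed the threshold with the replicate block (limma adjusted p = 0.0142, against 0.0534 without). Collagens lower in common numbered 2 without WT replicate 2 or without SWP replicate 1.

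Of 34 WNT ligands and receptors, 3 were higher and 3 lower, and 3 and 1 changed in common (17.6% changed and 11.8% in common). WNT7B had 29.7, 38.2 and 26.0 normalized counts in WT, 189, 266 and 254 in MUT and 42.4, 95.8 and 79.6 in SWP, a log2 fold change of 2.00 (SE 0.24, limma adjusted p = 0.000289), with WNT9A at 1.11 and WNT4 at 0.98. ROR2, a WNT5A receptor, fell by 0.87 (limma adjusted p = 0.0289), a call lost without WT replicate 2 or 3 or MUT replicate 1 or 3. Of 64 ephrins, semaphorins and their receptors, 6 were higher and 6 lower, 1 and 1 of them in common (18.8% changed and 3.12% in common). EPHA10 rose by 2.97 in MUT and 1.31 in SWP, and EPHA8 had 1117, 938 and 936 in WT, 539, 439 and 523 in MUT and 674, 654 and 658 in SWP, a log2 fold change of -0.79. The larger rise of WNT7B and EPHA10 in MUT passed the threshold (MUT minus SWP 1.75 and 1.66).

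Most potassium channel genes that passed the threshold did so through MUT. Of 52, 15 were higher and 1 lower, while 3 and 1 changed in common (30.8% changed and 7.69% in common), and the medians were 0.63 in MUT and -0.29 in SWP. KCNH2, the hERG channel of the cardiac action potential, had 205, 201 and 181 normalized counts in WT, 735, 826 and 787 in MUT and 282, 462 and 530.5 in SWP, a log2 fold change of 1.53 (SE 0.17, limma adjusted p = 0.000141). KCNJ11 rose by 0.69 in MUT and 0.63 in SWP. KCNQ1, also imprinted and overlapped by an antisense RNA, had log2 fold changes of 1.48 and 0.88, and the line difference passed the threshold with the replicate block (limma adjusted p = 0.0253, against 0.119 without). KCNH4 was lower, with log2 fold changes of -1.48 and -0.90. Among 22 imprinted genes (13.6% changed and 9.09% in common), PEG10 was the other that rose in common, by 1.27 in MUT and 1.02 in SWP. Of 42 synaptic vesicle and release genes, 8 were higher and 2 lower (23.8%), with 0 changed in common. Of 23 integrin genes 3 were higher and 1 lower (17.4%), with 1 higher in common (4.35%). Of 38 HOX genes 2 were lower (5.26%) and of 40 histone genes 1 was higher (2.50%), with 0 changed in common.

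For clustered protocadherins, too, MUT carried the mean. Of 25 tested, 16 were higher and 0 lower (64.0%), yet 1 changed in common, and the medians were 2.44 in MUT and -0.31 in SWP. MUT and SWP differed in 24 of the 25. PCDHB14 had 19.5, 7.86 and 10.6 normalized counts in WT, 251, 172 and 234 in MUT and 5.73, 7.43 and 6.92 in SWP. PCDHB15, the gene changed in common, had 9.23, 6.73 and 7.70 in WT, 42.5, 35.0 and 25.3 in MUT and 17.2, 13.4 and 10.4 in SWP. On the recovered reads DESeq2 called 10 of the list higher and edgeR 13.

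In 485 genes the lines lay beyond 0.5 on opposite sides of WT and differed from each other, 421 with MUT and 64 with SWP the higher line. PTN, a heparin-binding growth factor, had 53.3, 59.5 and 26.0 normalized counts in WT, 735, 636 and 612 in MUT and 1.15, 1.49 and 0 in SWP, and its mean over both lines, -0.39, was not past the threshold. KCNK2 had 7.18, 6.73 and 7.70 in WT, 410.4, 412 and 459.8 in MUT and 0, 1.49 and 0 in SWP, and JAKMIP2 had 20.5, 22.4 and 20.2 in WT, 1248, 1382 and 1301 in MUT and 1.15, 3.71 and 6.92 in SWP. These 3 genes were high in MUT and lowest in SWP. DDR2, a collagen receptor kinase, had 406, 1159.5 and 747 in WT, 108, 198 and 221 in MUT and 3163, 6109.7 and 6135 in SWP, a difference of MUT minus SWP of -4.86. DUSP2, a phosphatase of MAP kinases, had 54.3, 26.9 and 26.0 in WT, 10.2, 9.72 and 6.82 in MUT and 212, 143 and 127 in SWP, and ZNF492 had 41.0, 29.2 and 41.4 in WT, 0, 5.83 and 5.84 in MUT and 115, 127 and 137 in SWP. For these 6 genes the mean of the lines describes neither line.

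Interferon-stimulated genes had 4 higher and 4 lower of 29, 2 and 2 of them in common (27.6% changed and 13.8% in common), with a median of 0.022. The members that changed in common, given after their values were seen, go in both directions. IRF7, the factor that amplifies interferon production, had 76.9, 67.3 and 54.9 normalized counts in WT, 6.47, 1.94 and 2.92 in MUT and 0 in all SWP libraries. IFI44L had 58.4, 76.3 and 83.8 in WT, 22.2, 30.1 and 32.1 in MUT and 9.17, 23.8 and 21.9 in SWP, a log2 fold change of -1.68 (SE 0.29, limma adjusted p = 0.00205). OAS3, which senses double-stranded RNA, had 10.3, 11.2 and 2.89 in WT, 54.5, 50.6 and 50.7 in MUT and 26.4, 22.3 and 18.5 in SWP, a log2 fold change of 2.11 (SE 0.34, limma adjusted p = 0.00144), and CMPK2 rose by 0.86.

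Lists for damage and division are short, and their shares stand against 9.17% changed and 3.08% changed in common over all tested genes. Of 30 p53 targets, 2 were higher and 0 lower (6.67%), and 1 was changed in common (3.33%). That gene was EDA2R, a receptor of the tumour necrosis factor family. It had 500.2, 334 and 329 normalized counts in WT, 1153, 971 and 793 in MUT and 1366, 846 and 801 in SWP, a log2 fold change of 1.34 (SE 0.19, limma adjusted p = 0.00079). CDKN1A, the p53-induced inhibitor of cell division, rose in MUT by 1.35 and had a log2 fold change of -0.01 in SWP. HEK293T cells express viral proteins that inactivate p53. None of 43 DNA double-strand break repair genes, 40 mitosis genes, 20 DNA methylation genes or 13 mitochondrially encoded mRNAs passed the threshold with limma, and edgeR and DESeq2 called none of them either. At an unadjusted p under 0.05 from limma the lists held 17, 12, 7 and 1 genes, and their medians were -0.11, -0.054, -0.038 and 0.14. Of the repair genes 1 passed the threshold without WT replicate 1, without WT replicate 3 or without the libraries numbered 1. Of 48 DNA replication genes, 1 was higher and 1 lower (4.17%). FEN1, the flap endonuclease, was the one higher, with 15334, 11207 and 12332 in WT, 19252, 19320.1 and 19078 in MUT and 20955, 16727 and 17486 in SWP, a log2 fold change of 0.55 that fell under 0.5 without WT replicate 2 or SWP replicate 1.

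Among stress and nutrient regulators, single genes changed in common, where 9.17% of all tested genes changed and 3.08% changed in common. Of 36 mTOR regulators 5.56% changed and 2.78% changed in common, and of 24 heat shock genes 4.17% and 4.17%. The 34 tested hypoxia response genes had 1 higher and 3 lower (11.8%), with 1 lower in common (2.94%). MTOR, the kinase at the centre of nutrient sensing, was 1 of 2 lower genes among 36 regulators of that pathway, with 16921, 17855 and 15281 normalized counts in WT, 11236, 10355 and 11906 in MUT and 11310.0, 10295 and 11224 in SWP, a log2 fold change of -0.59 (SE 0.07, limma adjusted p = 0.000199). The interval of MUT minus SWP for MTOR was -0.14 to 0.20. Without WT replicate 1 the list had 5 lower genes, 4 of them in common. HSPB8, a small heat shock protein, was the only one of 24 heat shock genes past the threshold, with 34.9, 33.7 and 34.7 in WT, 159, 160.4 and 127 in MUT and 34.4, 52.7 and 69.2 in SWP, and SWP replicate 1 lay within the WT range. Without WT replicate 1, whose median of this list was the highest of the WT libraries, 8 heat shock genes were higher, 5 of them in common. CA12, a carbonic anhydrase induced by hypoxia, fell by 0.63, a fall that was under 0.5 without WT replicate 1.

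Among the autosomes and X, genes that rose in common were most frequent on chromosomes 19 (53 genes, 4.23%) and 11 (43 genes, 4.08%), against 1.85% of all tested genes, and those that fell on chromosome 8 (20 genes, 2.71%), against 1.23%. In windows of 20 Mb, the median log2 fold change was positive along chromosome 11 from 60 to 140 Mb, at 0.13 to 0.21. From 60 to 80 Mb 17 of 344 genes rose in common and 2 fell, and the medians were 0.12 in MUT and 0.29 in SWP. From 120 to 140 Mb 8 of 88 rose (9.09%) and 0 fell. On chromosome 12 from 100 to 120 Mb 11 of 162 rose (6.79%), with medians of 0.029 in MUT and 0.33 in SWP, so that the shift of that window lay in SWP.

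Chromosome 8 from 40 Mb on, which holds MYC, had negative medians over both lines in every window, from -0.32 to -0.13. They ran from -0.50 to -0.088 in MUT and from -0.11 to 0.00090 in SWP, against -0.0034 and -0.055 over all tested genes. This was not particular to chromosome 8. Every window from 0 to 120 Mb was negative on chromosome 1 (-0.22 to -0.16) and on chromosome 10 (-0.19 to -0.12). On chromosome 8 from 60 to 80 Mb, where SULF1 lies, 6 of 95 genes (6.32%) fell in common and 0 rose. Similar shares fell from 60 to 80 Mb on chromosome 1 (6 of 100) and from 80 to 100 Mb on X (3 of 47, 6.38%). The lowest window, chromosome 6 from 160 to 180 Mb, had a median of -0.44 over both lines, but -0.85 in MUT and -0.035 in SWP, and from 60 to 80 Mb on chromosome 20 the medians were 0.44 in MUT and -0.056 in SWP. Shifts of whole windows were thus of 1 line in these places. Copy number was not measured by these libraries, and its part was not tested.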

How the data were processed

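Strand-specific, poly(A)-selected RNA-seq of 9 HEK293T libraries was used. The authors aligned reads to GRCh38 with BWA, handled duplicates, counted reads per GENCODE gene and deposited counts divided by 1 DESeq2 size factor per library, a signal from which whole reads were recovered (100% of values within 0.01 of a whole number). BWA does not split reads over introns, so reads across exon junctions can be lost. The counting tool and its strand setting are not given in the sources used here. Submitters' processing notes list BWA 0.7.17-r2188 and cutadapt 1.18. The remaining 204 samples hold other assays and were not used here.

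Values were tested as log2(normalized count + 1) with limma 3.58.1 (R 4.3.3; lmFit, eBayes with a trend, all 3 lines in 1 fit), on 20884 genes with a mean of at least 10, as the mean of MUT and SWP minus WT and as MUT minus SWP, adjusted by Benjamini-Hochberg over these genes. On the recovered reads the quasi-likelihood test of edgeR 4.0.16 called 1920 genes and DESeq2 1.42.0 called 1866. The fits were tested on simulated data. Symbols matched 57754 of 58336 listed genes. Promoters came from RefSeq (GRCh38.p14). Python 3.11.15 was used for summaries.

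Named genes were MYC, the 10 largest risers and fallers by the smaller line's change (mean at least 50, no overlap), the top 2 risers and fallers changed in common per list, the 3 largest differences in each direction between lines on opposite sides of WT, and the 5 largest genes near 0 in WT or in edited libraries. Members and lists were chosen with earlier results of these data known, and further list members, CXCR4, KIF1A and NPTX1 were added after their values were seen.

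Alternatives were other pseudocounts, filters, scalings, fold thresholds, tools, a replicate block and leaving out each library. Deviations of same-numbered MUT and SWP libraries correlated at 0.333, 0.241 and 0.232, so the numbers were taken to pair MUT and SWP. Values of MUT minus SWP nevertheless come from the fit without the block, and the blocked value stands beside a printed difference where it changes the call. For WT the correlations were 0.328, 0.146 and 0.049 with MUT and 0.555, 0.403 and 0.102 with SWP. WT replicate 3 correlated more with replicate 2 of MUT and SWP (0.154 and 0.166) than with their replicate 3. The main fit takes no pairing with WT. The replicate block groups all 9 libraries by number, so blocked values rest on a pairing with WT as well.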

Additional observations from a re-analysis of the deposited data

Results flagged for a closer look

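These named genes drew attention because their change from WT differed between the edited lines in the test of MUT minus SWP itself (limma adjusted p under 0.05 and a difference beyond 0.5, with the error estimated over all 9 libraries). Values are log2 differences of MUT minus SWP. MYC was lower in MUT (-0.87). Among genes changed in common and higher, the change was larger in MUT for ZNF793 (0.62), ZNF563 (1.73), ERBB4 (0.99), SUSD4 (1.22), HSPB8 (1.54), FOS (1.79), EGR1 (1.04), KCNH2 (0.93), WNT7B (1.75) and EPHA10 (1.66) and larger in SWP for ZNF85 (-0.96). Among those lower, the change was larger in SWP for CTSZ (3.31), SNAI2 (2.30), LINC01419 (1.13), PHF11 (0.79) and ENPP2 (0.64) and larger in MUT for ICAM4 (-1.55), GPR55 (-0.98), SLC6A9 (-1.70) and COL13A1 (-1.11). For FOS, HSPB8, SLC6A9 and COL13A1 the change in SWP alone did not pass the threshold. On opposite sides of WT lay PTN (8.56), KCNK2 (8.30), JAKMIP2 (8.25), ZNF492 (-5.14), DDR2 (-4.86) and DUSP2 (-4.01). Of the genes with at most 3 reads in each WT library, the difference was ANOS1 (5.07), ASTN1 (6.88), UGT2B4 (6.39), VAT1L (5.00) and ZNF726 (-8.22).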

How the results depend on the processing

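The counts depended most on the size threshold. Without a fold threshold 4907 genes changed (2072 higher and 2835 lower), 4259 of them in common (1732 and 2527), and 7944 differed between MUT and SWP. With a threshold of 1 these were 594 (373 and 221), 154 (90 and 64) and 1723. With a mean of at least 50, 410 genes changed in common, 145 of them lower, since fewer genes were tested. Leaving out 1 library at a time gave 1404 to 2347 changed genes (861 to 1191 higher, 518 to 1266 lower), 515 to 930 in common (341 to 470 higher, 149 to 487 lower) and 3811 to 4784 different between MUT and SWP. The extremes for lower genes were without WT replicates 1 and 2. Without the 3 libraries numbered 1, a choice made after seeing the data, 2352 genes changed, 824 of them in common.

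The log2 fold change of MYC lost its call with equal totals (-0.52, limma adjusted p = 0.0541) and with eBayes without a trend (-0.58, limma adjusted p = 0.0721), and ranged from -0.68 to -0.43 with 1 library left out. It kept its call by edgeR and DESeq2, and with the replicate block, which pairs WT by number (-0.58, limma adjusted p = 0.00155). Of 1234 pairs of another named gene and an alternative, 1209 kept direction and side of the threshold, 22 lost the call and 3 changed sign: PTN with a pseudocount of 10 (0.66), DDR2 without WT replicate 1 (-0.032) and DUSP2 without WT replicate 3 (-0.0021). With 1 library left out, DDR2 ranged from -0.032 to 0.72 and DUSP2 from -0.0021 to 0.52, neither past the threshold with all libraries. KCNK2, ASTN1 and UGT2B4 lost their call by edgeR and DESeq2, and by limma with a pseudocount of 0.1. With that pseudocount their log2 fold changes were 0.51, 0.59 and 2.53 (limma adjusted p = 0.663, 0.41 and 0.102). The calls of these genes thus depended on the added count of 1. ZNF726 lost its call by edgeR. Why the tools differ was not tested. With the replicate block, which pairs WT by number as well, 2345 genes changed (1255 higher and 1090 lower), 756 in common (437 and 319). No call of a named gene against WT changed. The block gave 4773 genes different between MUT and SWP, against 4309.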
